A study of Homo sapiens with 2 samples.

Results

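Cytosolic ribosomal protein genes were examined in the lung cancer line NCI-H460, established from the pleural effusion of a large cell carcinoma. There was 1 library of cells given an siRNA to CYP4F11, labelled siCYP4F11 with the genotype CYP4F11 knockdown, and 1 labelled siControl with the genotype WT. The genes were all protein-coding rows whose symbol has the form of a large subunit (RPL) or small subunit (RPS) protein, leaving out RPS27L, the S6 kinase genes and the Y-linked RPS4 genes. This gave 87 of the 58735 genes in the table, 55 named for the large and 32 for the small subunit. Both libraries were collected 24 h after lipid transfection and carry the same batch label. For siControl the labels state that no CYP4F11 siRNA was used and name no control sequence. The design text of the series writes the line as NCI-H469, against NCI-H460 in the title and in the sample labels. With 1 library per group, every difference below compares these 2 libraries, has no replicate check and carries no test.

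The cytosolic ribosome joins a large subunit, which forms peptide bonds and holds the tunnel for the growing chain, to a small subunit, which reads the mRNA. Nearly every ribosomal protein is needed in equal copies per particle, and their mRNAs share a pyrimidine tract at the start, the 5′ terminal oligopyrimidine (TOP) motif. Through it, mTOR signalling controls their translation, with LARP1 as a known binder of the tract. Ribosomal protein output is tied to growth in tumour cells, and unassembled RPL5 and RPL11 can bind MDM2 and so stabilise p53.

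The libraries held 13002179 counts for siCYP4F11 and 16207785 for siControl. CYP4F11 itself had 972 counts in the siCYP4F11 library against 3180 in the siControl library, 74.5 against 197 CPM (counts scaled to the size of each library), a log2 ratio of -1.40 (95% counting interval -1.51 to -1.30). Of 5 epithelial markers, the keratins KRT8, KRT18 and KRT19 were measured, EPCAM had 8 and 6 counts, and CDH1 had 0 and 1. The 5 summed to 2902 CPM in siCYP4F11 and 3483 CPM in siControl, and the part of this in the results was not tested. Endothelial, leukocyte and airway marker lists summed to under 3 CPM in each library, and fibroblast markers to 29.8 CPM in siCYP4F11 and 21.4 CPM in siControl.

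The start of the mRNA was read for the ribosomal protein genes with an entry in RefSeq, because the TOP tract is the sequence they are best known to share. Entries were found for 68 of the 87 genes, with 85 start sites. A C at the start followed by at least 4 pyrimidines was present for 47 of the 68 genes (69.1%), where RPL36A and its readthrough locus share 1 start. The same tract was found for 4.98% of 27237 other genes and for 7.19% of the other measured protein-coding genes. Among starts of ribosomal protein genes that have it, the median tract was 8 bases long and the longest 19. The windows below run from 10 bases before the annotated start to 20 bases from it, 5′ to 3′, with the tract in capitals where one begins at the start. They belong to genes at either end of the range of differences described later, so that both ends can be compared.
RPL39 (chrX:119791611-119791640, minus strand): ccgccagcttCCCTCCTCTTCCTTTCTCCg
RPL41 (chr12:56116623-56116652, plus strand): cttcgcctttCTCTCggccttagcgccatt
RPL9 (chr4:39458903-39458932, minus strand): taatgacgacagacgttctttctttgctgc
RPS15 (chr19:1438386-1438415, plus strand): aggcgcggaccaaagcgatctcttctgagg
RPL3 (chr22:39319604-39319633, minus strand): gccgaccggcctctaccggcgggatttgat
RPS9 (chr19:54200848-54200877, plus strand): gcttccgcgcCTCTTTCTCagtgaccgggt
RPL14 (chr3:40457329-40457358, plus strand): ggtcttcttcCTTCTCgcctaacgccgcca
RPS6 (chr9:19380217-19380246, minus strand): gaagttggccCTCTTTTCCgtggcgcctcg
RPS3A (chr4:151099618-151099647, plus strand): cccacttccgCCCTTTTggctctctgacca
RPS10 (chr6:34426050-34426079, minus strand): catgctccttCCTTTCCagccccggtaccg
Tracts stand at both ends of the range, in RPL39 and RPL41 as well as in RPS9, RPL14, RPS6, RPS3A and RPS10, but not evenly. At the upper end RPL9 and RPS15 have start entries without a tract. So do RPL15 and RPL26L1, also among the 8 highest, whose windows are not shown. At the lower end RPL3 alone has an entry without a tract. RPL9 and RPS15 have a pyrimidine run a few bases downstream of the annotated start, and the run of RPL3 at its start is shorter than the limit. RPL19 and RPL36AL, with pyrimidine runs that begin before the annotated start, also count as genes without a tract. The split below thus depends on where starts are annotated and does not show that a gene lacks a TOP tract. The 46 measured genes with a tract had a median log2 ratio of -0.020 (siCYP4F11 over siControl), with 16 above 0 and 30 below. The 19 measured genes without one by this rule had a median of -0.0088, with 8 above 0 and 11 below. Outside the ribosomal protein genes the medians were -0.0076 for 689 measured genes with a tract and -0.00062 for 8889 without.

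As a group, ribosomal protein mRNAs stood at nearly the same level in both libraries. They took 7.61% of all counts in siCYP4F11 and 7.68% in siControl, and 28 of the 100 most counted genes of the table were among them. Their summed counts of 988818 and 1244304 gave a log2 ratio of -0.025 (95% counting interval -0.029 to -0.021). Of the 87 genes, 82 were measured, meaning a mean of at least 1 CPM over both libraries. The median log2 ratio of the 82 was -0.025, with the middle 50% of them between -0.071 and 0.024, and 30 lay above 0 and 52 below. Over all 13942 measured genes the median was -0.0055, with 6859 above 0 and 7083 below. In bulk RNA, less RNA per cell and fewer cells of a kind cannot be told apart.

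Few ribosomal protein genes passed a fold threshold. At 1.2-fold with a counting interval that excluded 0, 1 of the 82 was higher in siCYP4F11, RPL39L, and 1 was lower, RPS10. Among all measured genes 9.55% were higher and 11.1% lower by that rule. At 1.5-fold RPS10 alone passed, and at 2-fold 0 of the 82 passed in either direction, where the background shares were 2.04% higher and 3.44% lower at 1.5-fold and 0.703% and 1.26% at 2-fold. The counting intervals were narrow enough to show smaller differences. They lay wholly above 0 for 15 of the 82 and wholly below 0 for 33, against 18.6% and 19.2% of all measured genes.

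The log2 ratios of these genes lay closer together than those of other genes at similar levels. Of the 75 ribosomal protein genes that averaged 100 CPM or more, 61 (81.3%) were within 0.1 of 0 on the log2 scale, against 43.1% of 1987 other genes at that level. Their log2 ratios had an SD of 0.074 across genes against 0.18 for the others, where counting error alone gives 0.022 and 0.041. From a mean of 500 CPM upwards, 49 of 60 ribosomal protein genes (81.7%) and 44.5% of 220 other genes were within 0.1, at nearly equal counting SDs of 0.017 and 0.019. At 1.2-fold, 0 of the 75 were higher and 0 lower, against 5.63% and 7.71% of all genes at that level. At 1.5-fold the count was 0 in both directions, against 0.0485% higher and 0.388% lower, and at 2-fold it was 0, against 0% and 0.0485%. Counting intervals lay wholly above 0 for 13 of the 75 and wholly below 0 for 32, against 31.6% and 33.9% of all genes at that level. Genes are not replicates, and these shares describe this pair of libraries.

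**Figure D1:**
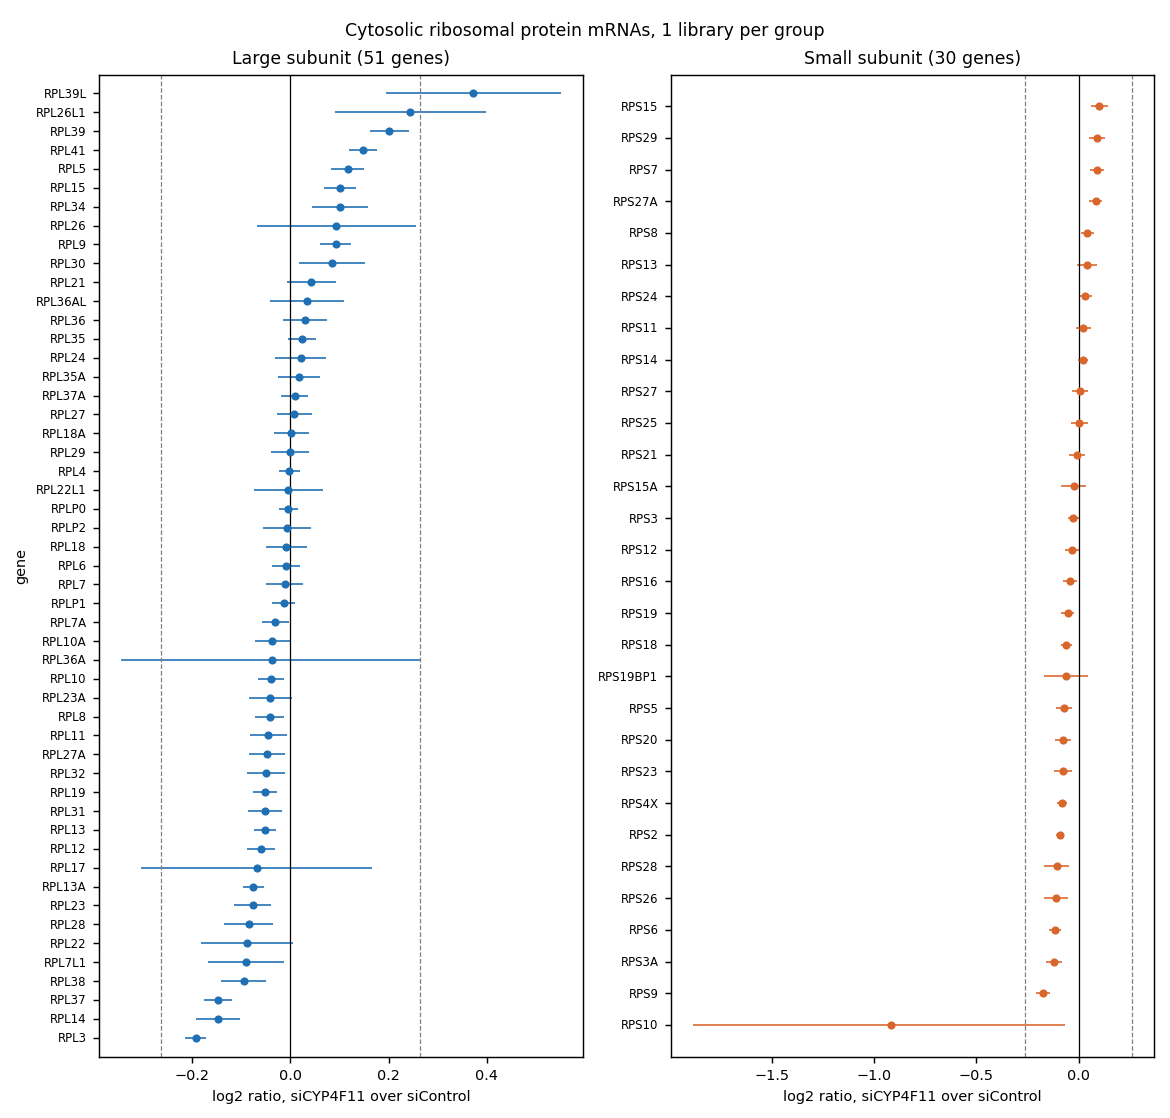
Log2 ratio of siCYP4F11 over siControl on the x axis for 81 measured ribosomal protein genes, 51 of the large subunit left and 30 of the small subunit right (the 2 x axes differ in range). Points are single ratios, bars the 95% counting interval, and dashed lines 1.2-fold; only RPL39L and RPS10 lie past a dashed line with an interval that excludes 0.

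The large and small subunits differed little. The 51 measured large subunit genes had a median log2 ratio of -0.0088, with 19 above 0 and 32 below, and the 31 small subunit genes a median of -0.041, with 11 above 0 and 20 below. The median of the large subunit was thus 0.032 higher on the log2 scale. Large subunit genes took 4.81% of counts in siCYP4F11 and 4.84% in siControl, and small subunit genes took 2.80% and 2.84%. For each small subunit count there were 1.72 large subunit counts in siCYP4F11 and 1.70 in siControl. A correction for GC content, fitted on all measured genes, left the ribosomal protein genes with a stronger GC trend of opposite sign, as described below. After it the subunit medians were 0.0049 (large) and 0.0099 (small), so the order of the subunits turned round. It also turned round without genes that share over 10% of their words with other genes, counted over all their transcripts, at -0.037 (large) and -0.025 (small). Some genes kept share more of their main transcript, such as RPL36A with 80.3%. By the main transcript alone, 35 of 51 large and 25 of 31 small subunit genes share over 10%.

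On the large subunit, the stalk that recruits the translation GTPases had nearly the same CPM in both libraries. RPLP0, which anchors it, had 39430 counts (3020.4 CPM) in siCYP4F11 and 48903 (3029 CPM) in siControl, a log2 ratio of -0.0043 (-0.023 to 0.015). RPLP1 had 26732 and 33374 counts, a log2 ratio of -0.014 (-0.037 to 0.0094), and RPLP2 had 6110 and 7586, a log2 ratio of -0.0058 (-0.055 to 0.043). All 3 intervals include 0. RPL12, at the base of the stalk, was at -0.060 (-0.089 to -0.032). With the GC correction described below, RPLP0, RPLP1 and RPLP2 were above 0, at 0.057, 0.027 and 0.083.

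The pair that carries the small RNA of the large subunit and can bind MDM2 lay on opposite sides of 0. RPL5 had 13136 counts (1006 CPM) in siCYP4F11 and 14980 (928 CPM) in siControl, a log2 ratio of 0.12 (0.083 to 0.15). RPL11 had 10345 (792 CPM) and 13197 (818 CPM), a log2 ratio of -0.045 (-0.082 to -0.0077). Neither interval includes 0, and both differences are below 1.2-fold. Of the main transcript of RPL5, 33.1% of 50-base words also occur in transcripts of other genes, against 1.55% for RPL11. With the GC correction RPL5 was at 0.035.

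Around the catalytic centre and the tunnel wall all 4 genes listed lay below 0. RPL3, which reaches towards the peptidyl transferase centre, had 29452 counts (2256 CPM) in siCYP4F11 against 41619 (2578 CPM) in siControl. Its log2 ratio of -0.19 (-0.21 to -0.17) was the lowest among large subunit genes. It lies on chromosome 22 from 39312882 to 39320389, minus strand, on GRCh38. RPL4, which lines the tunnel, had 33454 and 41420 counts and was at -0.0018 (-0.023 to 0.019), an interval that includes 0. RPL8 and RPL10 were at -0.042 and -0.040. With the GC correction RPL3 was at -0.11 and RPL10 at 0.035, so RPL10 turned its sign. The corrected values of RPL4 and RPL8 are not reported here.

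Among the 8 genes listed for the tunnel exit, RPL39 stood above the others. This small protein lines the end of the tunnel. RPL39 had 9763 counts (748 CPM) in siCYP4F11 and 10502 (651 CPM) in siControl, a log2 ratio of 0.20 (0.16 to 0.24), or 0.13 with the GC correction. The other 7 were between -0.088 for RPL22 and 0.094 for RPL26, and 5 of the 8 lay below 0.

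By the interval bound nearest 0, and leaving out RPL5 and the paralogs, the next large subunit genes above 0 were RPL41, RPL15 and RPL9. RPL34 was at 0.10 with a wider interval (0.044 to 0.16). RPL41, the shortest protein of the ribosome, had 18221 counts (1396 CPM) in siCYP4F11 and 20336 (1259.8 CPM) in siControl, a log2 ratio of 0.15 (0.12 to 0.18). RPL15 had 13666 and 15753 counts, at 0.10 (0.068 to 0.13), and RPL9 had 14619 and 16956, at 0.092 (0.060 to 0.12). Of the main transcript of RPL9, 87.3% of words are shared with other genes, so its count is less certain, and with the GC correction it was at 0.014. Furthest below 0 after RPL3 were RPL37 and RPL14. RPL37 had 16743 counts (1283 CPM) against 22921 (1419.9 CPM), at -0.15 (-0.18 to -0.12), and RPL14 had 6822 (523 CPM) against 9340 (579 CPM), at -0.15 (-0.19 to -0.10).

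On the small subunit, the 4 genes listed for the decoding site and mRNA entry all lay below 0, between -0.18 for RPS9 and -0.026 for RPS3. RPS9, which helps form the mRNA entry channel, had 11582 counts (887 CPM) in siCYP4F11 and 16177 (1002 CPM) in siControl, a log2 ratio of -0.18 (-0.21 to -0.14). RPS2, also at the entry channel and the most counted gene of the group, had 48586 (3722 CPM) and 64092 (3970.3 CPM), at -0.093 (-0.11 to -0.076). Of the words of its main transcript 69.4% occur in other genes. With the GC correction RPS9 was at -0.073 and RPS2 at 0.017, so RPS2 turned its sign.

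RPS6, the substrate of the S6 kinases, had 15398 counts (1179.5 CPM) in siCYP4F11 and 20640 (1279 CPM) in siControl, a log2 ratio of -0.12 (-0.15 to -0.086). RPS3A, on the platform, had 8867 (679 CPM) and 11914 (738 CPM), at -0.12 (-0.16 to -0.080). Of the 5 genes listed for the platform and mRNA exit, RPS14 alone lay above 0, at 0.021. RPS15, in the head near the decoding site, was the highest of the small subunit, with 8757 counts (671 CPM) and 10091 (625 CPM), at 0.10 (0.060 to 0.14). Of the words of the main transcript, 84.3% for RPS3A and 52.5% for RPS15 occur in other genes, so these counts are less certain. With the GC correction RPS6 was at -0.18, RPS3A at -0.19 and RPS15 at 0.23. The ubiquitin fusion gene RPS27A was at 0.083 (0.050 to 0.12).

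RPS10, also in the head, had the lowest log2 ratio of the group, from very few reads. It had 16 counts (1.23 CPM) in siCYP4F11 and 38 (2.35 CPM) in siControl, a log2 ratio of -0.92 (-1.88 to -0.064). The gene lies on chromosome 6 from 34417454 to 34426125, minus strand, and 77.0% of its main transcript lies within exons of another gene on the same strand, the readthrough locus RPS10-NUDT3, which had 0 counts in both libraries.

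RPS10 was 1 of 5 ribosomal protein genes with that property, a group formed after the values were seen. More than 50% of the main transcript lay in same-strand exons of another gene for this group, which included RPL36A (77.6%), RPL17 (76.3%) and RPL26 (59.0%). RPL17 had 267 counts in siCYP4F11 and 346 in siControl, RPL26 had 585 and 678, and RPL36A had 163 and 207. The highest level of the group was that of RPL26, at 44.8 CPM in siCYP4F11 and 42.0 CPM in siControl. The other 71 genes, leaving out 7 paralogs, 3 readthrough loci and RPS19BP1, all had a mean of at least 128 CPM, which was that of RPL22. Among those 71 the largest overlap was 26.4%, in RPL18. How the counting treated reads that fall in exons of several genes was not tested. The log2 ratios of RPL17, RPL36A and RPL26 were -0.067, -0.037 and 0.094, each with an interval that includes 0.

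**Figure D2:**
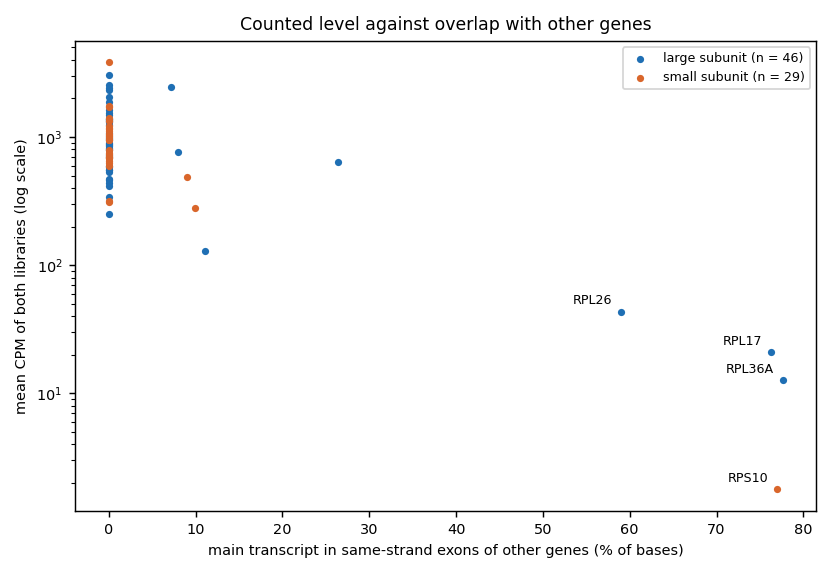
Mean CPM of both libraries (y axis, log scale) against the share of the main transcript's bases that lie in same-strand exons of other genes (x axis, %), 1 point for each of 75 measured ribosomal protein genes, without paralogs, readthrough loci and RPS19BP1. The 4 named genes past 50% overlap hold the 4 lowest levels shown.

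Levels were also compared per length, as CPM per kilobase of the deposited gene model. RPS2 was highest, at 1542 in siCYP4F11 and 1645 in siControl. Next came RPL41 with 1283 and 1158, RPS12 with 1221 and 1249, RPL19 with 1042 and 1080.0, RPL13A with 1004 and 1058, and RPL35 with 902 and 886. The order of RPL41 and RPS12 differs between the libraries, and 4 of these 6 were also in the top 6 when the length of the main transcript was used. Among the lowest measured genes were RPS10 (0.520 and 0.998), RPL36A (3.15 and 3.23) and RPL17 (8.29 and 8.69), all 3 from the overlapped genes above.

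Paralogs of ribosomal proteins held the largest log2 ratios above 0. RPL39L, a paralog of RPL39 best known from testis and some tumours, had 535 counts (41.0 CPM) in siCYP4F11 and 511 (31.7 CPM) in siControl, a log2 ratio of 0.37 (0.19 to 0.55). It lies on chromosome 3 from 187120948 to 187180908, minus strand, and shares 2.55% of the words of its main transcript with other genes. It gave 5.20% of the pair's counts in siCYP4F11 and 4.64% in siControl. RPL39 also lay above 0, and the pair summed was at 0.21 (0.17 to 0.25).

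RPL26L1 had 679 counts (52.0 CPM) in siCYP4F11 and 709 (43.9 CPM) in siControl, a log2 ratio of 0.24 (0.090 to 0.40), just short of 1.2-fold. Summed with RPL26 the pair was at 0.17 (0.061 to 0.28). Of the main transcript of RPL26L1, 52.9% of words are shared with other genes, most with the pseudogene RPL26P30, so its count is less certain. RPL26P30 had 23 counts in siCYP4F11 and 112 in siControl, at -1.95 (-2.69 to -1.32). How reads were divided between RPL26L1 and RPL26P30 was not tested. RPL22L1 had 2919 and 3619 counts, at -0.0037 (-0.075 to 0.067), and its parent RPL22 had 1623 and 2134 counts, at -0.088 (-0.18 to 0.0053), so the intervals overlap. It gave 64.3% of that pair's counts in siCYP4F11 and 62.9% in siControl. RPL36AL had 2595 and 3133 counts, at 0.035 (-0.041 to 0.11), beside the few counts of the overlapped RPL36A. With the GC correction RPL22L1 was at -0.12 and RPL36AL at -0.054, the second with its sign turned. RPL7L1 had 2364 and 3112, at -0.090 (-0.17 to -0.013), and its parent RPL7 10247 and 12769, at -0.011 (-0.049 to 0.027), or -0.093 with the GC correction. RPL3L, the muscle form of RPL3, had 9 counts in each library, below the filter.

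The 5 genes that were not measured were RPL3L, RPL10L and the readthrough loci RPL17-C18orf32, RPL36A-HNRNPH2 and RPS10-NUDT3. The last 4 had 0 counts in both libraries, which allows up to 0.230 CPM in siCYP4F11 and 0.186 CPM in siControl at a limit of 3 counts. RPS19BP1, taken in by its symbol, encodes a binding partner of RPS19 and not a ribosomal protein, and was at -0.061 (-0.17 to 0.044).

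Of the ribosome components that the symbol pattern leaves out, RACK1 on the small subunit head had 24332 and 29206 counts, at 0.043 (0.018 to 0.068). FAU, which encodes a small subunit protein fused to a ubiquitin-like protein, had 2838 and 3484 counts, at 0.011 (-0.062 to 0.082). RPSA, added after its values were seen, was at 0.041 (0.010 to 0.072). All 3 were within 1.2-fold.

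Mutations in some ribosomal protein genes cause Diamond-Blackfan anaemia. The 9 of them listed lay on both sides, 4 above 0 and 5 below, with a median of -0.045 and a range from RPS10 to RPL5. By chromosome, the largest number, 12 genes, lay on chromosome 19, with a median log2 ratio of -0.047 and a median GC content of 57.2%. The other 70 measured genes had a median of -0.019 and a median GC content of 49.2%.

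GC content was compared with the log2 ratio in ribosomal protein genes and in other genes. Across 1987 other genes that averaged 100 CPM or more, the Spearman correlation of log2 ratio and transcript GC content was -0.44, against -0.20 across the 75 ribosomal protein genes at that level. Both are correlations across genes of the same pair of libraries and no test was made. In the third of ribosomal protein genes with the lowest GC content (28 genes, 39.5% to 47.7%) the median was -0.0063, where 825 other genes of that range had 0.072. In the third with the highest (27 genes, 52.8% to 63.6%) it was -0.040, where 610 other genes had -0.084. Across all 82 measured ribosomal protein genes the Spearman correlation with GC content was -0.21. After a GC correction fitted on all measured genes it was 0.46 across the same 82. The correction thus left these genes with a stronger trend of opposite sign, and signs or orders that it turned are uncertain. The corrected median of the 82 was 0.0074, with 45 above 0 and 37 below. RPL39L and RPS10 were again the genes past 1.2-fold.

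**Figure D3:**
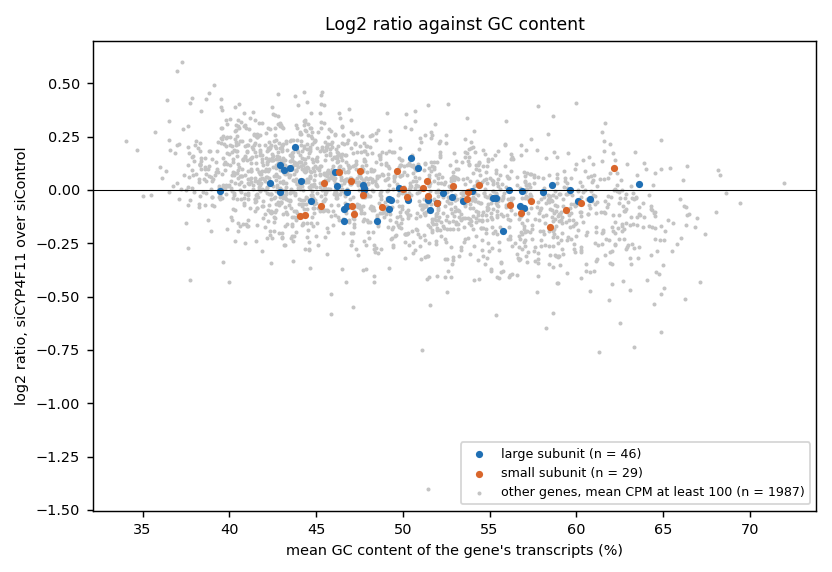
Log2 ratio of siCYP4F11 over siControl (y axis) against the mean GC content of a gene's transcripts (x axis, %), for genes that averaged 100 CPM or more. The 75 ribosomal protein genes (46 large, 29 small subunit) form a flatter and narrower band than the 1987 other genes, shown in grey.

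The length of the main transcript went with the log2 ratio among ribosomal protein genes. In the third with the longest (28 genes, 1170 to 7686 bases) 2 genes lay above 0 and 26 below, with a median of -0.064. In the third with the shortest (28 genes, 296 to 716 bases) 18 lay above 0 and 10 below, with a median of 0.019. The Spearman correlation across the 75 genes that averaged 100 CPM or more was -0.54. With the deposited length of the gene model, which joins the exons of all transcripts, it was -0.17, against -0.13 across 1987 other genes. The annotated transcripts taken for RPL14 (7072 bases) and RPL37 (7686 bases) are far longer than the mRNAs commonly described for them. Without both genes the correlation was -0.50 across 73. The relation depends on which length is taken, and the transcript form present in these cells was not measured.

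**Figure D4:**
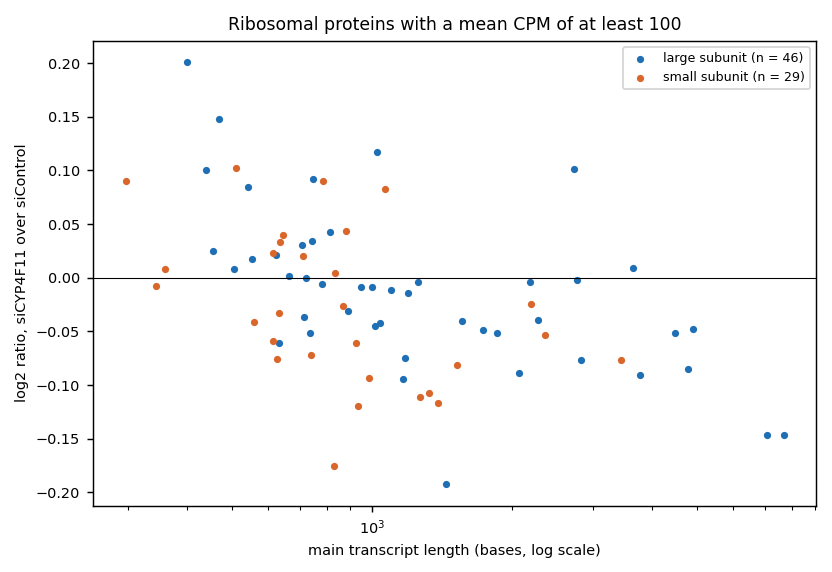
Log2 ratio of siCYP4F11 over siControl (y axis) against the length of the main transcript (x axis, bases, log scale) for the 46 large and 29 small subunit genes that averaged 100 CPM or more. RPL39 and RPL41, both short, are the 2 highest points, and RPL14 and RPL37 are the 2 longest by the annotated transcripts chosen, which are far longer than their commonly described mRNAs.

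Other translation genes were set beside them. For 19 measured non-ribosomal genes listed for TOP tracts, mostly elongation and initiation factors, the median log2 ratio was -0.029, with 7 above 0, 12 below and 0 past 1.2-fold. The elongation factor EEF2 was at -0.24 (-0.25 to -0.22), with 37607 and 54736 counts, and TPT1 at 0.21 (0.17 to 0.25). For 48 measured ribosome biogenesis genes the median was -0.11, with 12 above 0 and 36 below, and by the 1.2-fold rule 0 were higher and 7 lower, where 9.55% and 11.1% of all measured genes passed. The 7 included BOP1, a processing factor of the large subunit, at -0.46 (-0.56 to -0.36), and NOP14, of the small subunit, at -0.37 (-0.50 to -0.25). For 5 genes for chaperones of ribosomal proteins and related factors the median was -0.021, with 0 past 1.2-fold. All these genes share the same pair of libraries, and no test of a difference between lists was made.

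Mitochondrial ribosomal proteins, the matching set for the ribosome of the organelle, spread more widely at their lower levels. Of 77 measured, 8 were higher and 5 lower at 1.2-fold, beside 9.55% and 11.1% of all measured genes. Their median was 0.048, and 46 lay above 0. MRPL36 was at 0.53 (0.37 to 0.70) and MRPL24 at -0.42 (-0.52 to -0.33). Their SD across genes was 0.22 with 0.11 from counting error, against 0.13 and 0.059 for the 82 cytosolic genes, and 0.091 and 0.025 for the cytosolic genes without the 5 overlapped ones and RPS19BP1.

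Ribosomal protein pseudogenes, copies from which reads can be shared, took few counts. Of 1132 in the table, 299 had at least 1 read and 66 were measured, and together they held 26938 counts in siCYP4F11 and 33962 in siControl, 0.207% and 0.210% of the libraries. Their median was 0.038 but -0.019 among those averaging 10 CPM or more, and the log2 ratio of the summed counts was -0.028. At 1.2-fold 4 were higher and 6 lower, beside 9.55% and 11.1% of all measured genes. RPL41P1 had 122 counts against 441, at -1.54 (-1.85 to -1.26), while its parent RPL41 lay above 0. RPS3AP26 had 155 against 440, at -1.20 (-1.47 to -0.93), and its parent RPS3A lay below 0.

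**Figure D5:**
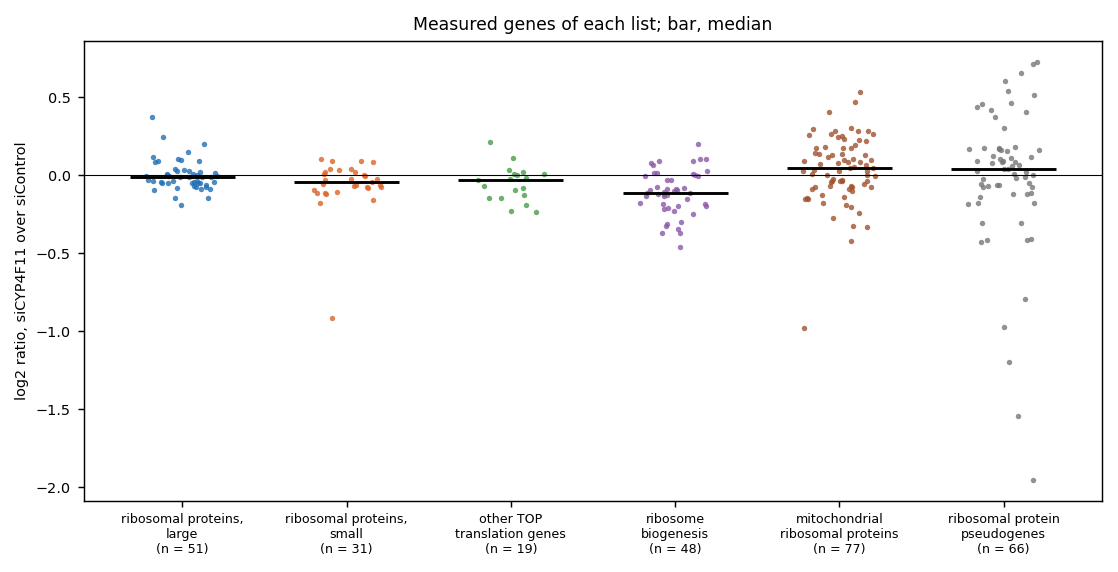
Log2 ratio of siCYP4F11 over siControl (y axis) for the measured genes of each list (x axis), 1 point per gene and a bar at the median. Ribosomal proteins of both subunits sit close to 0 apart from RPS10, RPL39L and RPL26L1, and biogenesis genes sit lower (median -0.11). Pseudogenes, mostly at low counts, spread widely, with an SD of 0.47 where counting error alone gives 0.23.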

How the data were processed

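Poly-A RNA of NCI-H460 cells was sequenced as strand-specific libraries, per the labels' protocols. The authors deposited raw read counts per gene, whole numbers without normalisation, in 1 table that also gives gene model lengths. The build was GRCh38 and the tools included HISAT2 2.2.1, fastp, edgeR 4.0.16 and featureCounts 2.0.6, per the submitters' processing notes. Neither parameters, nor the strand setting, nor the handling of reads that fit several genes is given in the sources used here. The table held 0 further sample columns.

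From the counts, effective library sizes were computed by TMM in edgeR 4.0.16 under R 4.3.3. They turned counts into CPM, and log2 ratios were taken with 0.5 added to each count. Each ratio has an exact 95% Clopper-Pearson interval, which covers counting error only. Measured genes averaged 1 CPM or more. A gene was called at 1.2-fold when its interval also excluded 0. No p-value was computed, because each group had 1 library. Full values are given for the 8 ribosomal protein genes highest, and the 8 lowest, by the interval bound nearest 0, the highest and lowest levels per length, stalk proteins, RPL5 and RPL11, and paralog pairs. The genes and lists were chosen with earlier results of these data known; role, chromosome, length and overlap groups were formed after their values were seen. Some single genes are counted in the totals but not reported here.

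Words of 50 bases, exon overlaps, transcript lengths and GC content came from GENCODE release 29, and start sites from RefSeq on GRCh38.p14. The main transcript of a gene was its best-ranked principal coding transcript. Alternatives were total counts, DESeq2 1.42.0 size factors, upper-quartile factors, TMM without the ribosomal genes, other filters and additions, fewer genes, and a lowess GC correction with a span of 0.3. Versions were scipy 1.17.1, numpy 2.4.6, statsmodels 0.14.6, pandas 2.3.3 and matplotlib 3.10.9 under Python 3.11.15.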

Additional observations from a re-analysis of the deposited data

How the results depend on the processing

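The analysis without the 5 overlapped genes and RPS19BP1 was chosen after seeing the data. The summed counts of ribosomal protein genes gave a log2 ratio of -0.014 with total counts, -0.019 with DESeq2 size factors and -0.021 with upper-quartile factors, against -0.025. The median of the small subunit was 0.0099 with the GC correction, against -0.041. That of the large subunit, -0.0088 in the report, was 0.0028 with total counts and 0.0049 with the GC correction. The mean over large subunit genes was 0.00082, so the sign for the large subunit is not stable. The number of genes higher at 1.2-fold, 1 in the report, was 0 without paralogs and readthrough loci, 0 without genes that share over 10% of their words, and 0 at 1.5-fold and at 2-fold. The number lower, also 1, was 0 among genes averaging 10 CPM or more, 0 without genes that share over 10% of their words, 0 at 2-fold and 0 without the 5 overlapped genes. These counts follow from leaving out RPL39L or RPS10 or from the stricter fold; over all its transcripts RPL39L shares 10.5% of words, just past the 10% limit. The Spearman correlation of log2 ratio with transcript length was -0.17 with the deposited gene length, against -0.54; this alternative too was chosen after seeing the data. For the medians, the scalings and the lengths the cause was not tested. CYP4F11 stayed within its counting interval. The medians of the other lists stayed within the medians of the single-gene interval bounds. Those bounds reflect single genes and not a median, so staying within them says little. The median of the TOP genes was -0.079 with the GC correction, against -0.029. That of the pseudogenes was -0.019 among those averaging 10 CPM or more, against 0.038. Under all alternatives the biogenesis median stayed below 0 and the mitochondrial one above 0. Of 29 named ribosomal protein genes, the GC correction moved 17 outside their counting interval and no other alternative run for them moved any. Those others could hardly move a single gene, because the filters leave its ratio unchanged and the scalings shift all genes by the same small amount. Of the genes called at 1.2-fold, 0 changed sign. Low counts limit RPS10, with the widest interval among the measured ribosomal protein genes, and RPL39L. No paired analysis was possible because each group had 1 library.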
